A study of Mus musculus with 101 samples.

Results

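The 3 regions described here belong to 2 developmental transcription factor genes, Lhx9 and Nkx2-1, and were taken from a capture panel read in 85 naive mouse embryonic stem cell lines. They are the 3 regions of these genes in the authors' category of strain-variable regions, out of 92 regions in that category and 868 in the panel, and they hold 79 of the 7917 CpGs listed singly. The regions were chosen because, in an earlier look at the same data, their methylation followed the overall methylation of a line less closely than that of most regions of their category. Their correlation with that overall level is therefore given below as a description and supports nothing. The lines came from Diversity Outbred stock, a mouse population in which the genomes of several inbred founder strains are mixed, so the lines differ in genotype. All were grown in serum with LIF, a cytokine that holds embryonic stem cells undifferentiated, together with the paired kinase inhibitors known as 2i, and no line served as an untreated control. DNA was read by enzymatic methyl sequencing, in which enzymes convert unmethylated cytosines, after capture with a Twist panel. The line names carry 4 prefixes, B1 with 28 lines, B2 with 18, B3A with 20 and B3B with 19, and the sources used here do not say what a prefix stands for. Each deposited column is called a line here, although B1_B37N and B1_B37 share a name apart from the final N, which leaves 84 names. The values of this pair were 5.66% and 6.30% at Lhx9 region 1, 1.52% and 2.08% at Lhx9 region 2, and 4.53% and 5.20% at Nkx2-1. Over all kept regions they differed by 2.93 points on average and correlated at 0.967, a value that only 6 of the 3570 pairs of columns exceeded. The labels give each column its own title and do not say whether both come from the same line. Both were kept and are counted separately among the 85, and the main tests were also run without B1_B37N. Which founder strain a line carries at Lhx9 or Nkx2-1 was not analysed here.

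Lhx9 encodes a LIM-homeodomain transcription factor that mouse embryos need to form gonads and that also acts in the limb and the developing brain. Nkx2-1 encodes a homeodomain factor of the NK family that specifies thyroid, lung and ventral forebrain in mice and later drives thyroglobulin and surfactant genes. Neither gene is known as a gene of the naive pluripotent state. Methylation of CpGs around a start site is a mark commonly associated with silent promoters, and culture in 2i is known to lower methylation over most of the genome. Expression was not measured, so nothing is said here of transcription from either gene.

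Coordinates are those of mm10, and gene positions come from the RefSeq table of GRCm38.p6, the same coordinates. Lhx9 (gene ID 16876) lies on the minus strand at chr1:138825186-138848839, and the RefSeq start site used here, at position 138842444, lies inside that interval. Lhx9 region 1 (chr1:138839579-138842068, 2490 bases) is entirely within the gene and stops 376 bases downstream of that start site. Lhx9 region 2 (chr1:138842376-138843259, 884 bases) also lies within the gene and spans the start site, from 68 bases downstream to 815 bases upstream, with 307 bases between the regions. Nkx2-1 (gene ID 21869) lies on the minus strand at chr12:56531935-56536908. The Nkx2-1 region (chr12:56536789-56538219, 1431 bases) spans its start site, from 119 bases downstream to 1311 bases upstream, with 120 bases inside the gene, and it also overlaps Gm26973 (56537190 to 56627767), a separate RefSeq gene. Exon and UTR boundaries were not used here. No other target region lay within 100 kb of these 3.

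The promoter windows are shown because most of the start-site CpGs, 3 of 4 at Lhx9 and 9 of 12 at Nkx2-1, fall inside them. Each is the RefSeq window from 250 bases before to 50 bases after the start, on the minus strand, 5′ to 3′, with the CpGs measured in these lines in capitals. The Lhx9 window is chr1:138842395-138842694 and the Nkx2-1 window is chr12:56536859-56537158, both in GRCm38.p6.
Lhx9: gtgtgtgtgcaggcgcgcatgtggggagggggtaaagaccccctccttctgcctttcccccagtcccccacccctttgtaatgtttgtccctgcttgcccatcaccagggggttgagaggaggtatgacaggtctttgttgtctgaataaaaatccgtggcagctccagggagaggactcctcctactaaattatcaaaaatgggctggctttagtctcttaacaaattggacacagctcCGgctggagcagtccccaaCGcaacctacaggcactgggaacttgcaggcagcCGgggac
Nkx2-1: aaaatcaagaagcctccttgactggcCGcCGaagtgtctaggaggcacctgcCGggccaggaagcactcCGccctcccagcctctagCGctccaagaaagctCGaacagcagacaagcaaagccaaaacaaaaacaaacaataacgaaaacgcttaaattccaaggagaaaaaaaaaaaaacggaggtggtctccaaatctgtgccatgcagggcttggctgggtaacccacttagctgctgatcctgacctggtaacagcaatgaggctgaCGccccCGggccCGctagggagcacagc
The Lhx9 window held 6 CG dinucleotides, of which 3 were measured, and the Nkx2-1 window held 12, of which 9 were measured. The motif searched was CG, which reads the same on both strands. The median over 32851 RefSeq windows of this length was 7, and 56.4% of them held at least as many as Lhx9, against 39.6% for Nkx2-1. The 3 Lhx9 CpGs in capitals averaged 13.2% ± 19.5, 14.8% ± 20.6 and 13.03% ± 19.5 (SD, n = 85 lines each) in the order printed, with means and spreads close to each other. In the Nkx2-1 window the first 5 CpGs in capitals averaged 7.91%, 14.4%, 6.83%, 17.6% and 3.82%, and the other 4 averaged between 3.01% and 4.79% (n = 85). The CpGs of the same Nkx2-1 window thus differed by several fold in mean level.

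All 3 regions were mostly weakly methylated, with a minority of lines far above the rest. Lhx9 region 1 averaged 18.1% ± 14.5 (SD, n = 85), with a lowest line at 1.99%, a median of 13.4% and a highest line at 61.7%. Lhx9 region 2, at the start site, averaged 14.2% ± 16.9 (SD, n = 85) and ran from 0% through a median of 6.95% to 72.7%. The Nkx2-1 region averaged 18.2% ± 15.6 (SD, n = 85), from 1.19% through a median of 12.2% to 65.6%. In each region the median lay below the mean, since a few lines carried high values. Under 5% were 9 lines at Lhx9 region 1, 28 at Lhx9 region 2 and 12 at Nkx2-1. Above 40% were 7, 8 and 10 lines in the same order. The deposited files give fractions without read counts, so how many reads stand behind a value is unknown, and sampling noise is part of each spread.

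Compared with regions of like mean, the 3 regions had somewhat larger spreads and longer upper tails. Among the 191 kept regions with a mean between 10% and 25%, the median SD was 12.1 points and the median number of lines above 40% was 5. The skewness of the values over lines was 1.38 at Lhx9 region 1, 2.05 at Lhx9 region 2 and 1.24 at Nkx2-1, against a median of 1.03 over those 191 regions. These figures describe regions chosen from the same values and carry no test. Methylation at pluripotency genes was low: the regions of Nanog, Zfp42 and Tbx3 averaged 0.360%, 0.792% and 0.191%, and that of Dppa3 6.26% in the 64 lines with a value. The region of the developmental gene Lmx1a was as low, with 0.573% (n = 84), so these values do not check stem cell identity.

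**Figure D1:**
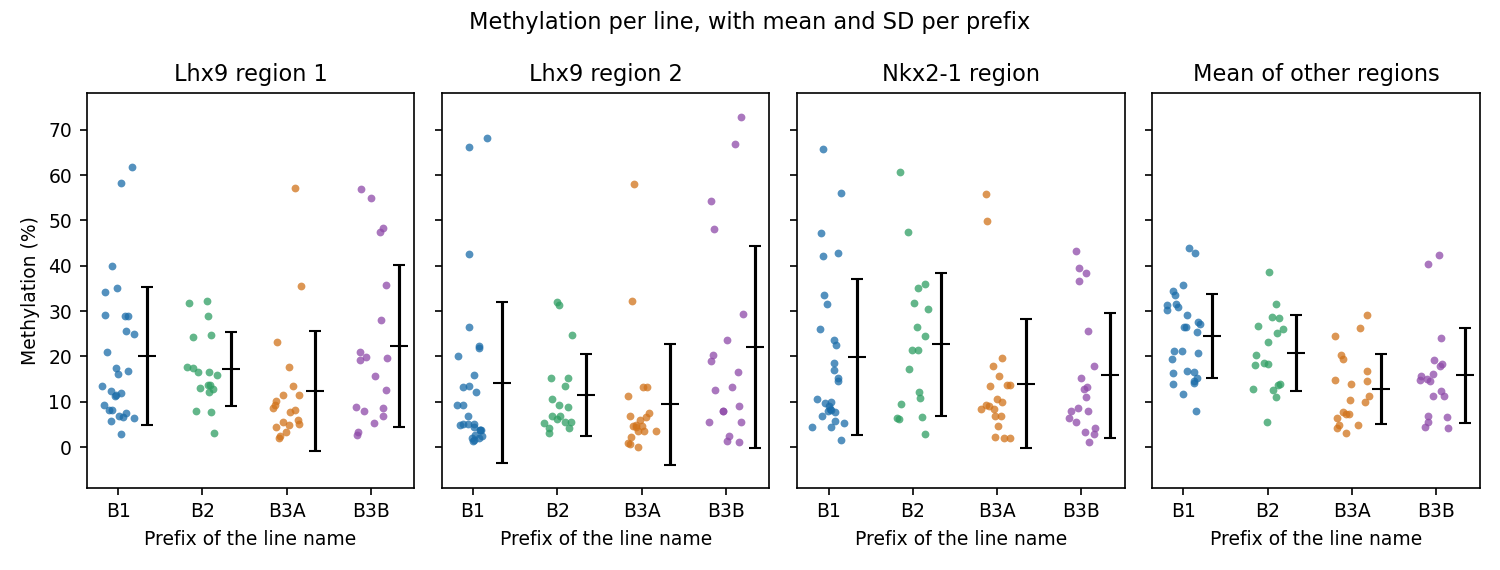
Methylation in percent (vertical axis) of each line (points) at the 3 regions and as the mean of the other kept regions, by prefix of the line name (horizontal axis), with the mean and SD per prefix in black. At the 3 regions most lines sit under 20% and single lines reach 61.7%, 72.7% and 65.6%, while the mean of the other regions does not pass 43.9%.

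By prefix, the lines of all 4 groups overlapped widely at each region. At Lhx9 region 1 the lowest, median and highest lines were 2.85%, 14.8% and 61.7% in B1 and 3.20%, 16.1% and 32.2% in B2. The B3A lines had 1.99%, 8.45% and 57.2%, and the B3B lines 2.75%, 19.1% and 57.03%. The B2 lines were thus the only prefix with no line above 40% at this region. At Lhx9 region 2 they were 1.42%, 5.97% and 68.2% in B1 and 2.999%, 7.92% and 31.9% in B2. The B3A lines had 0%, 4.81% and 58.1%, and the B3B lines 1.09%, 13.4% and 72.7%. The B3B median was the highest of the 4 at both Lhx9 regions. At the Nkx2-1 region they were 1.52%, 12.6% and 65.6% in B1 and 2.99%, 21.4% and 60.8% in B2. The B3A lines had 2.01%, 9.59% and 55.7%, and the B3B lines 1.19%, 11.1% and 43.1%. Here B2, not B3B, had the highest median.

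The means followed a different order at the 2 genes. At Lhx9 region 1 the B1 lines averaged 20.02% ± 15.2, the B2 lines 17.2% ± 8.19, the B3A lines 12.4% ± 13.2 and the B3B lines 22.3% ± 17.9 (SD). At Lhx9 region 2 the B1 lines averaged 14.2% ± 17.7, the B2 lines 11.6% ± 9.05, the B3A lines 9.40% ± 13.4 and the B3B lines 21.97% ± 22.3. At Nkx2-1 the B1 lines averaged 19.9% ± 17.2, the B2 lines 22.6% ± 15.7, the B3A lines 13.996% ± 14.2 and the B3B lines 15.9% ± 13.8. B3A was thus lowest at all 3 regions, with B3B highest at Lhx9 and B2 highest at Nkx2-1. With limma's moderated F test over the 4 prefixes, on the log2 odds of methylation and with Benjamini-Hochberg adjustment over all 787 kept regions, none of the 3 passed 0.05. The adjusted p was 0.0761 at Lhx9 region 1, 0.0834 at Lhx9 region 2 and 0.215 at Nkx2-1, and the unadjusted p was 0.0642, 0.0709 and 0.196, so 0 of 3 passed 0.05 unadjusted as well. A permutation test of F on the fractions gave p = 0.152, 0.102 and 0.303 in the same order. The same limma test called 81.6% of all kept regions and 51 of the 73 kept strain-variable regions (69.9%). The overall level itself differed between prefixes (permutation p = 0.00025), and the 3 regions were chosen for following that level little, so nothing is read from their standing below this background. With the overall level of each line as a covariate, 0 of 3 passed (adjusted p = 0.0814, 0.0525 and 0.694), where 3.56% of kept regions did. The unadjusted p of that fit was 0.00685, 0.00221 and 0.495 in the same order (limma). On fractions centred by that level both Lhx9 regions passed (adjusted p = 0.0113 and 0.00315) and Nkx2-1 did not (0.378), where 77.3% of kept regions passed. Centring subtracts a level that differed between prefixes from regions chosen for following it little. Nothing is read from the centred calls, and the part of the subtraction in them was not tested. With averages of the CpG table Lhx9 region 2 passed (adjusted p = 0.0136, limma), where 79.4% did.

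Of the 6 pairs of prefixes, 1 passed the threshold at 1 region. Lhx9 region 1 was higher in B1 than in B3A by 0.89 ± 0.38 (SE) on the log2 odds scale (adjusted p = 0.0248, limma), a contrast in which 85.3% of all kept regions were called. None of the 3 passed in B1 against B2, B1 against B3B, B2 against B3A or B2 against B3B, contrasts that called 0%, 67.2%, 72.4% and 0.254% of kept regions. The B1 minus B3B contrast depended on the processing at Lhx9. On fractions centred by the overall level B1 was below B3B, with differences of -0.109 at Lhx9 region 1 and -0.165 at Lhx9 region 2 (adjusted p = 0.00463 and 0.00304, limma, where 71% of kept regions passed). That level averaged 24.5% over the B1 lines and 15.8% over the B3B lines, and centring subtracts this gap. Without centring the differences in fractions were -0.0226 and -0.0781 (adjusted p = 0.626 and 0.153, limma, where 57.3% passed). Nothing is read from the centred calls, since the regions were chosen for following that level little. With averages of the CpG table B1 was below B3B at Lhx9 region 2 by a log2 odds difference of -1.97 (adjusted p = 0.00731, limma, where 64.2% passed). B1 was also below B3B with that level as a covariate, by -1.01 at Lhx9 region 1 and -1.68 at Lhx9 region 2. These 2 differences did not pass (adjusted p = 0.0652 and 0.0574, unadjusted p = 0.000741 and 0.000219, limma), where 0.127% of kept regions passed. With the overall level of each line as a covariate the B1 minus B3A difference at Lhx9 region 1 was -0.37 (adjusted p = 0.604, limma, where 0% of kept regions passed), so its direction turned. It did not pass without the columns ending in N, which leaves 4 B3A lines (1.09, adjusted p = 0.0984, where 71.4% of kept regions passed), or without the lines with 2 titles (0.80, adjusted p = 0.0762, where 77.3% did). On untransformed fractions B1 was higher by 0.0764 (adjusted p = 0.0816, where 80.8% passed), and on fractions centred by the overall level it was lower by a difference of -0.0404 (adjusted p = 0.244, where 76.7% passed). The call held with an offset of 0.05 or 0.001, with 2 lines of each prefix or all lines required, and with averages of the CpG table (adjusted p between 0.0226 and 0.0388, limma), where 84.8%, 85%, 84.8%, 86.2% and 82.3% of tested regions passed. It also held without B1_B37N (0.95, adjusted p = 0.0172). The B3A minus B3B difference was -0.98 ± 0.41 (SE) at Lhx9 region 1 and -1.41 ± 0.52 (SE) at Lhx9 region 2, with unadjusted p = 0.0194 and 0.00848 and adjusted p = 0.612 for both, in a contrast where 0% of kept regions were called.

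A final N in the column name moved with the B3B values at Lhx9. The 9 B3B lines with a final N averaged 33.4% ± 27.5 at Lhx9 region 2, against 11.7% ± 8.64 in the 10 B3B lines without it (SD). At Lhx9 region 1 the averages were 30.9% ± 21.3 in the 9 lines with N and 14.5% ± 9.98 in the 10 without. At Nkx2-1 the order was the other way, with 11.97% ± 11.9 in the lines with N and 19.4% ± 15.01 in those without. The prefixes were also compared within each kind of column at each region, by permutation tests of F with no adjustment. Over the 31 columns ending in N, which include no B2 line, p was 0.0681 at Lhx9 region 1, 0.0369 at Lhx9 region 2 and 0.798 at Nkx2-1. Over the other 54 columns p was 0.308, 0.770 and 0.416 in the same order of regions. All 4 B3B lines above 40% at Lhx9 region 2 ended in N. The sources used here do not say what N stands for, and its part in the B3B values was not tested.

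The methylation of a region was not even along its length. Of the CpGs of Lhx9 region 1, 43 lay 482 to 1148 bases downstream of the start site and are called nearer here. The other 15, called farther, lay 1208 to 2417 bases downstream. Splitting them there was done after the values were seen and carries no test. The split does not mark a change in spacing, since most of the farther CpGs also lie close together. Per line, the 43 CpGs averaged 5.47% ± 9.64 (SD, n = 85), from 0% through a median of 1.35% to 44.3%. The 15 farther CpGs averaged 28.7% ± 21.6 (SD, n = 85), from 3.22% through 22.3% to 81.6%. In 85 of 85 lines the farther CpGs were higher, by 23.2 points on average. The start-site CpGs of Lhx9 region 2, only 4 within 61 bases, averaged 12.9% ± 19.3 (SD, n = 85), from 0% through 4.58% to 80.3%.

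The Nkx2-1 region showed the same kind of step on the upstream side. Its 12 CpGs from 93 bases downstream to 223 bases upstream of the start site averaged 7.01% ± 8.25 (SD, n = 85), with a median of 3.86% and a highest line at 36.5%. The 5 CpGs 836 to 1176 bases upstream averaged 31.5% ± 21.99 (SD, n = 85), with a median of 24.5% and a highest line at 88.8%. The upstream CpGs were the higher ones in 85 of 85 lines, by 24.5 points on average. No line passed 40% at the Nkx2-1 start site, whereas 8 lines did at the 4 Lhx9 start-site CpGs and 27 did at the upstream Nkx2-1 CpGs.

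**Figure D2:**
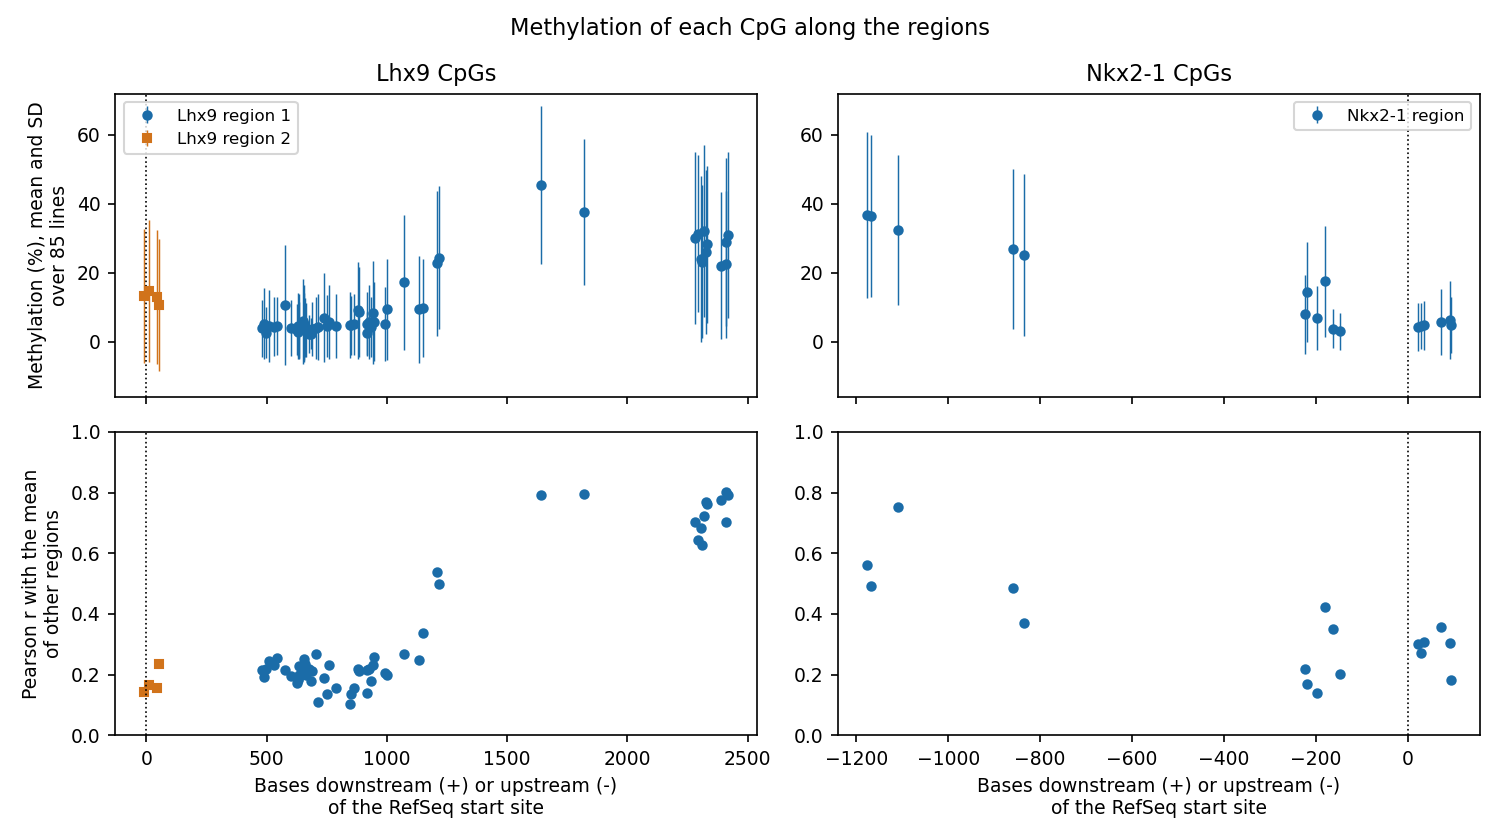
Upper panels: methylation in percent of each CpG, as mean (symbol) and SD (bar) over 85 lines, against its distance in bases from the RefSeq start site (dotted line, downstream to the right) for Lhx9 (left) and Nkx2-1 (right). Lower panels: Pearson r of each CpG with the mean of the other kept regions. It is at most 0.336 in the nearer Lhx9 CpGs (482 to 1148 bases downstream) and lies between 0.499 and 0.801 in the farther 15. The median nearer CpG was at 0% in 45 lines, the median farther one in 4.

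Single CpGs at the extremes showed the same contrast. In Lhx9 region 1 the CpG at 138840805, 1639 bases downstream of the start, had the highest mean, 45.4% ± 23.005 (SD, n = 85), and was above 50% in 30 lines and at 0% in none. The lowest was the CpG at 138841770, 674 bases downstream, with 2.24% ± 5.50 (SD, n = 85) and 57 lines at 0%. The CpG with the largest SD, at 138840124, had 32.2% ± 24.99 (SD, n = 85). In Lhx9 region 2 the CpG 10 bases downstream of the start, at 138842434, had both the highest mean and the largest SD, 14.8% ± 20.6 (SD, n = 85), and the lowest was at 138842393 with 10.6% ± 19.1. At Nkx2-1 the CpG at 56538084, 1176 bases upstream, was highest and most variable with 36.8% ± 23.99 (SD, n = 85), and that at 56537055, 147 bases upstream, was lowest with 3.01% ± 5.42. The CpG averages of whole regions were lower than the deposited region averages, 11.5% against 18.1% at Lhx9 region 1, 12.9% against 14.2% at Lhx9 region 2 and 14.2% against 18.2% at Nkx2-1, but correlated with them across lines at 0.984, 0.968 and 0.992. The sources used here do not say which positions entered the deposited averages.

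The same split divided the CpGs by how far they followed the overall level of a line. Per line, the 15 farther CpGs of Lhx9 region 1 correlated with the mean of the other kept regions at r = 0.751, the 43 nearer ones at 0.223 and the 4 start-site CpGs of region 2 at 0.177 (n = 85 lines). At Nkx2-1 the 5 upstream CpGs reached 0.558 and the 12 around the start site 0.308. The stretches with lower r also held more values at 0%. The median CpG was at 0% in 45 lines in the nearer stretch, against 4 in the farther stretch. It was at 0% in 24 lines at the Lhx9 start site, 39 at the Nkx2-1 start site and 1 upstream. The part of these values in the lower r was not tested. Over whole regions r was 0.593 at Lhx9 region 1, 0.366 at Lhx9 region 2 and 0.463 at Nkx2-1, against a median of 0.872 over all kept regions and 0.760 over the strain-variable regions. In the order of that category by r, from the lowest, these regions stood 20th, 7th and 9th of 73. Lhx9 region 2 stood between Svil (nearest gene) at 0.356 and B3galt6 at 0.438, and Nkx2-1 between B3galt6 and Ppp1r8 (nearest gene) at 0.475. Irak3 at 0.586 and Ktn1 at 0.623 bounded Lhx9 region 1. Lhx9 region 2 and Nkx2-1 averaged 14.2% and 18.2%, while these neighbours were less methylated, with means of 1.67% at Svil, 4.27% at B3galt6 and 3.11% at Ppp1r8.

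**Figure D3:**
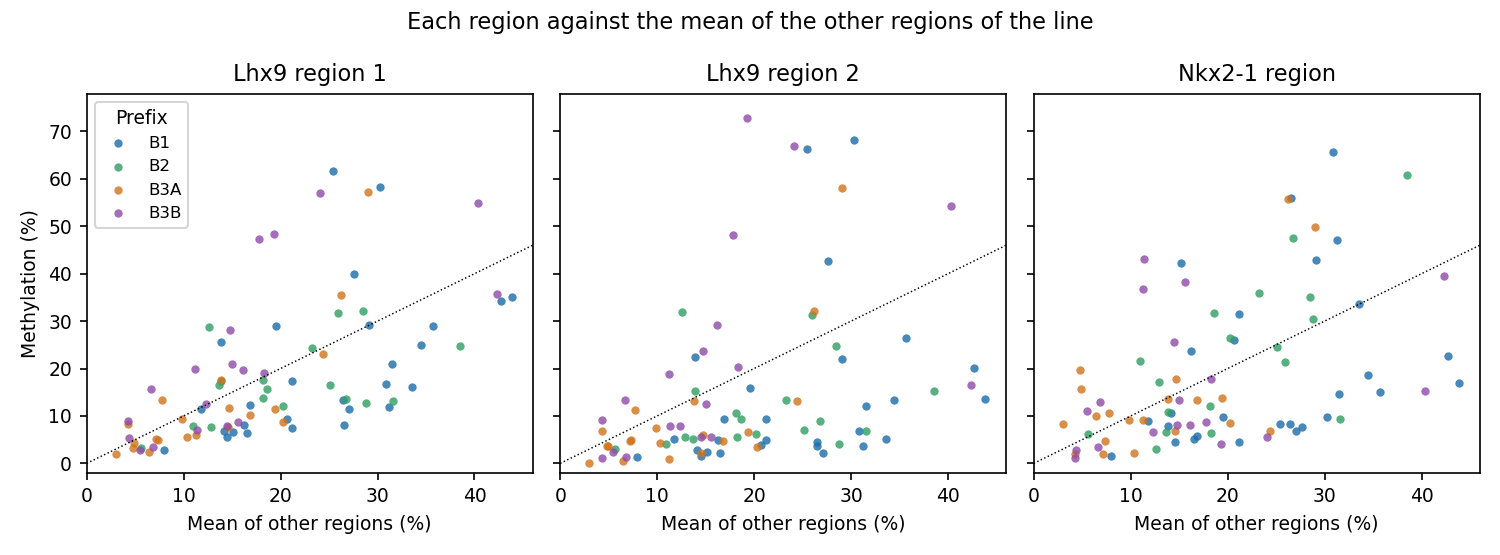
Methylation in percent of each of the 3 regions (vertical axis) against the mean of the other kept regions of the same line (horizontal axis, percent), 85 lines coloured by prefix, with a dotted line where the values would be equal. Points lie above the dotted line in 30, 21 and 33 lines at Lhx9 region 1, Lhx9 region 2 and Nkx2-1, and the highest lines of each region lie far above it.

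The pair of Lhx9 regions varied together across lines. Their Pearson r was 0.935 and Spearman rho 0.919 (permutation p = 1e-05 each, the smallest these permutations can give, adjusted p = 3e-05 over 6 correlations, n = 85). Without the 2 lines farthest from the median r was 0.919, and within prefixes it lay between 0.897 in B2 and 0.980 in B3A. After regression of both regions on the overall level, r was 0.959. Among the other 24 pairs of kept regions within 5 kb of each other, none had a residual r as high, with a median of 0.647, although 10 of them had a higher r before that regression. The Lhx9 regions were chosen for following that level little, so the regression took less from them than from most regions. Nothing is read from their standing on the residuals. By stretch, the nearer CpGs of region 1 and the start-site CpGs of region 2 correlated at 0.960, and the farther CpGs of region 1 correlated with those at 0.675 and 0.671, described here without a test. Region 1 was the higher of the pair in 71 of 85 lines, by 3.90 ± 6.12 points (SD).

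Lhx9 and Nkx2-1 did not show such a relation. Lhx9 region 1 and Nkx2-1 correlated at r = 0.110 (permutation p = 0.319, adjusted p = 0.383) and rho = 0.225 (p = 0.0383, adjusted p = 0.0766). For Lhx9 region 2 and Nkx2-1, r was -0.0126 (p = 0.909) and rho 0.142 (p = 0.196, adjusted p = 0.293). After regression on the overall level, the residuals correlated at -0.231 and -0.221 (adjusted p = 0.0619 each). Leaving out the 2 farthest lines gave r = 0.170 and 0.0546. Within prefixes the r of Lhx9 region 1 with Nkx2-1 was -0.136 over the B1 lines, 0.262 over the B2 lines, 0.817 over the B3A lines and -0.169 over the B3B lines. For Lhx9 region 2 the values, in the same order of prefixes, were -0.207, 0.0572, 0.832 and -0.284. The B3A values rested on lines B3A_37N and B3A_7N, since without the 2 farthest lines they were 0.0894 and 0.0457.

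**Figure D4:**
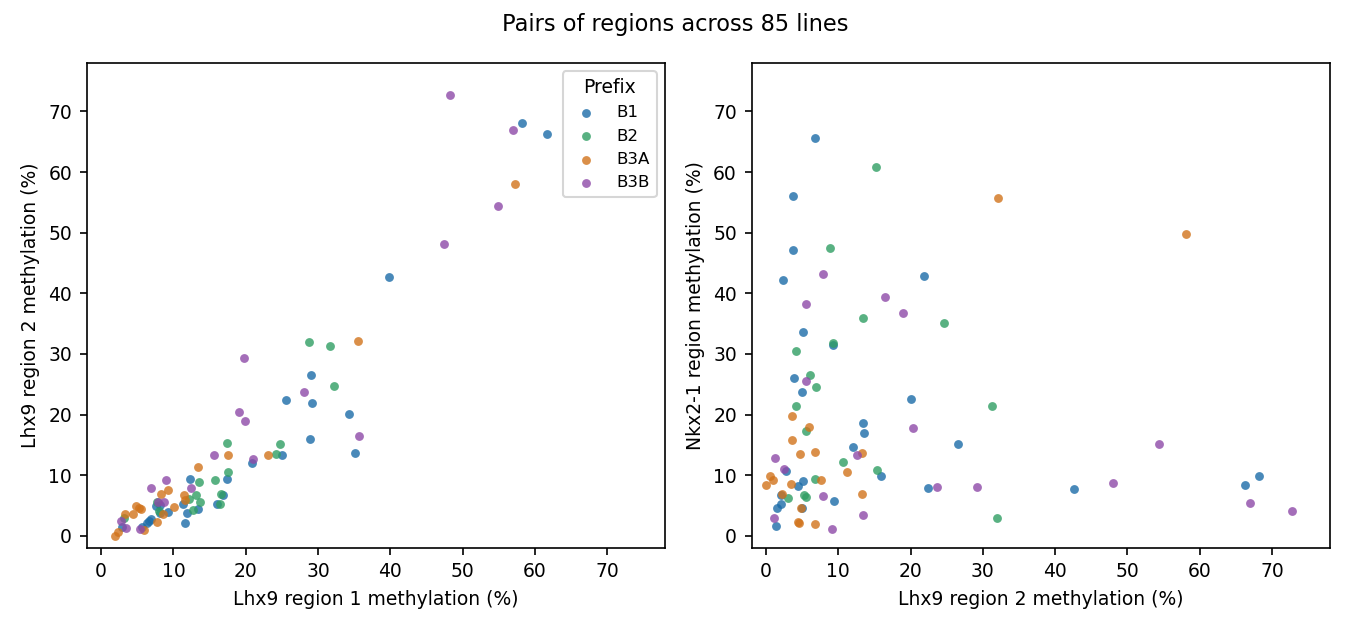
Left: methylation in percent of Lhx9 region 2 against Lhx9 region 1. Right: Nkx2-1 region against Lhx9 region 2. Each point is 1 of 85 lines, coloured by prefix. The left panel is a narrow band (r = 0.935), and the right one has an arm of lines high at Lhx9, an arm of lines high at Nkx2-1 and 1 line above 40% on both axes.

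High values at Lhx9 and at Nkx2-1 were counted together. In all, 17 lines exceeded 40% at 1 or more of the 3 regions: 8 at an Lhx9 region, of which 7 exceeded it at both, and 10 at Nkx2-1. Line B3A_37N was the single line above 40% at both genes, with 57.2% at Lhx9 region 1, 58.1% at Lhx9 region 2 and 49.8% at Nkx2-1. The Lhx9 lines were 3 B1, 1 B3A and 4 B3B lines, and the Nkx2-1 lines were 5 B1, 2 B2, 2 B3A and 1 B3B line. The overlap is thus 1 of 8 (12.5%) of the Lhx9 lines, where 10 of all 85 lines (11.8%) exceeded 40% at Nkx2-1, so nothing is read from it. Just under the cut, B3A_7N had 35.5% and 32.2% at Lhx9 regions 1 and 2 beside 55.7% at Nkx2-1, and B3B_8 had 35.7% and 16.5% beside 39.5%. No line was grouped by these values for a test.

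At Lhx9, line B3B_15N had 48.3% and 72.7% at regions 1 and 2 beside 4.14% at Nkx2-1, with an overall level of 19.3%. Line B1_C16 had 58.3% and 68.2% beside 9.85% at Nkx2-1, and line B3B_25N had 47.4% and 48.1% beside 8.70%. These lines were high along the whole Lhx9 stretch. In B1_C16 the farther, nearer and start-site CpGs averaged 79.0%, 35.7% and 71.1%, and in B3B_15N 57.0%, 31.8% and 80.3%. The 43 nearer CpGs thus stayed below the CpGs on either side in these lines, as they did in the mean over all lines.

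At Nkx2-1, line B1_D4N had 65.6% beside 16.8% and 6.77% at Lhx9 regions 1 and 2, and line B1_B45 had 56.0% beside 8.12% and 3.73%. Line B3B_7 had 43.1% at Nkx2-1 although its overall level was only 11.4%, and it had 6.94% and 7.86% at Lhx9. The highest Nkx2-1 lines were high at both stretches and, like all lines, higher at the upstream CpGs. In B1_D4N the upstream CpGs averaged 84.9% and the start-site CpGs 36.5%, and in B1_B45 77.0% and 25.3%. Both start-site values lay far above the median of 3.86% over all lines, and both upstream values lay far above the upstream median of 24.5%.

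At the level of single CpGs, 10 of the 79 passed the prefix test (limma moderated F, adjusted over all 7917 CpGs), where 45.2% of all CpGs passed. They were 7 of 58 in Lhx9 region 1, 2 of 4 in Lhx9 region 2 and 1 of 17 at Nkx2-1. The regions were chosen for following the mean of the other regions little, so nothing is read from the lower share. CpGs of a stretch varied together across lines, with a median r between them from 0.735 to 0.951, so they are not separate results. The 4 called CpGs among the farther ones of Lhx9 region 1 had their highest mean in B1, as at 138840027, 2417 bases downstream, where the B1 lines averaged 38.3%, the B2 lines 32.5%, the B3A lines 19.2% and the B3B lines 31.5% (adjusted p = 0.0300). The 3 called among the nearer CpGs and the 2 called at the start site had their highest mean in B3B. At 138842453, 9 bases upstream of the start, the B1 lines averaged 10.8%, the B2 lines 8.30%, the B3A lines 9.13% and the B3B lines 25.5% (adjusted p = 0.0132). The Nkx2-1 CpG, at 56538018 and 1110 bases upstream, averaged 40.9% over the B1 lines, 39.3% over the B2 lines, 20.8% over the B3A lines and 25.2% over the B3B lines (adjusted p = 0.00606). With the overall level as a covariate 0 of the 79 passed, where 0.177% of all CpGs did. On untransformed fractions 4 passed, where 38.5% did, and without the columns ending in N 1 passed, where 22.7% did.

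The regions whose values across lines were most like Lhx9 were other strain-variable regions on other chromosomes. After regression on the overall level, Cd59a, which encodes an inhibitor of complement attack (chromosome 2, 104095811 to 104096669), had r = 0.604 with Lhx9 region 1 and 0.622 with Lhx9 region 2 (n = 85). Zfp759 (chromosome 13, 67128916 to 67129237), a zinc-finger gene, had 0.599 and 0.589 (n = 71), and both regions of the zinc-finger gene Zfp458 had between 0.491 and 0.544. On the fractions themselves Zfp458 led for Lhx9 region 1 with 0.736 (n = 85), ahead of the region nearest Colec12, a collectin, with 0.690 and of the phosphatase gene Cdc14b with 0.653. The highest Cd59a line, B3B_38N with 40.6%, had 66.9% at Lhx9 region 2, while the highest Lhx9 region 1 line, B1_C13N, had 0.313% at Cd59a. All these likenesses are descriptions, picked as the highest of many and sharing the libraries.

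Nkx2-1 was most like another set of regions. The region nearest Gm38492, 7657 bases from that gene (chromosome 4, 115978610 to 115979110), had r = 0.742 on the fractions and 0.656 on the residuals (n = 85). The region 216 bases from Ppp1r8, a protein phosphatase 1 regulatory gene (chromosome 4, 132843385 to 132843691), had 0.676 and 0.584 (n = 84). Magel2, an imprinted gene, Pabpc6 and Igfbp6, which encodes a binding protein of insulin-like growth factors, followed on the fractions with 0.553, 0.551 and 0.547, and on the residuals Pabpc6, Magel2 and Arel1 with 0.352, 0.349 and 0.327. Line B1_A23, the highest at Gm38492 with 27.4%, had 47.2% at Nkx2-1, and line B1_D4N, the highest at Nkx2-1, had 24.5% at Gm38492. No region was among the most like of both genes.

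Related genes were mostly outside the panel. Of 12 LIM-homeobox genes, 2 had a target region, Lhx9 and Lmx1a, and 0 of their 3 regions passed the prefix test, where 81.6% of all kept regions did. Of these 3 regions 2 are the Lhx9 regions, chosen for following the overall level little, so nothing is read from this count. Lmx1a, a regulator of dopaminergic neuron development, had 0.573% ± 0.481 (SD, n = 84), far below Lhx9. Of 14 NK-homeobox genes, 2 had a region, and 1 of the 2 regions passed, the other being the Nkx2-1 region. The one that passed was the region nearest Nkx6-1, a regulator of beta-cell and motor neuron development, with 17.1% ± 11.2 (SD, n = 85, adjusted p = 0.0327, limma) and r = 0.848 with the overall level, against 0.463 at Nkx2-1 with nearly the same mean.

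Of genes that act in the early gonad, as Lhx9 does, few were on the panel. Among 21 such genes, 5 had a region, 4 of these were kept and 4 of 4 passed the prefix test, where 81.6% of all kept regions did. Nr5a1, an early gonad factor, had 43.2% ± 22.97 (SD, n = 84), and Gata4 had 13.9% ± 7.83 (SD, n = 85). Their r with the overall level was 0.965 and 0.890. Of 26 forebrain, thyroid and lung genes listed beside Nkx2-1, only Foxa2, a factor of endoderm, had regions, and all 3 passed with means between 3.47% and 7.75%. Whether r differs between these genes and the members was not tested, since the members were chosen on it.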

How the data were processed

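Methylation was measured by enzymatic methyl sequencing after Twist capture, per the labels. The submitters' processing notes name Bismark, Bowtie2, Trim Galore 0.6.4 and mm10, and the sources used here give no settings. In the category that the authors named B6J vs 129, called strain-variable in the report, 92 regions are listed. The authors deposited methylation fractions for 868 regions and 7917 CpGs in 85 columns, filtered at a coverage of 10 by the tables' names. Fractions are printed as percent. No read counts are given, so depth is unknown and no interval was computed. Of the 85 columns, 44 matched 1 title; 41 were used only by prefix (16 lines with 2 titles, 24 with a final N that the title lacks, 1 with no title). Nothing says that columns are separate cultures, so p-values measure the spread between columns. No columns were identical.

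A region was kept when at least 80% of lines had a value (787 regions). The overall level of a line is the mean of its kept regions other than the 3 described, which averaged 19.0% ± 10.1 (SD, n = 85) and ran from 3.02% to 43.9%. Prefixes were compared by limma 3.58.1 (R 4.3.3) on the log2 odds, log2((fraction + 0.01)/(1 - fraction + 0.01)), p-values being adjusted over all regions or CpGs by Benjamini-Hochberg with a threshold of 0.05. As a covariate, the level of a line entered as the mean log2 odds of the same kept regions, not as the mean percent. Correlations used permutation tests (two-sided, 100000 resamples). The script was tested on simulated data. Python 3.11.15, NumPy 2.4.6, pandas 2.3.3, SciPy 1.17.1 and matplotlib 3.10.9 were used. The regions, the gene lists and the tests were chosen with earlier results of these data known. Named besides were the extreme CpGs, the 3 category neighbours on each side, from which those next in order are printed, and the 5 most alike regions.

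Promoter windows come from RefSeq, where both genes matched by symbol. All 1554 CpGs of the table inside RefSeq windows sat on the C of a CG on the plus strand. Alternatives covered the scale, the offset (0.05 and 0.001), the lines required, the overall level, columns ending in N, lines with 2 titles, averages of the CpG table and the column B1_B37N.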

Additional observations from a re-analysis of the deposited data

Results flagged for a closer look

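The difference between the Lhx9 regions varied with prefix. Lhx9 region 1 minus Lhx9 region 2 averaged 5.86 ± 6.08 points over the B1 lines, 5.65 ± 4.004 over the B2 lines, 2.98 ± 2.68 over the B3A lines and 0.308 ± 8.55 over the B3B lines (SD), with region 1 the higher in 25 of 28, 17 of 18, 17 of 20 and 12 of 19 lines. A permutation test of F over the prefixes, chosen after seeing the data, gave p = 0.00642 (adjusted p = 0.0193 over 3 differences between the regions), and p = 0.00475 on the log2 odds scale. Over the columns without a final N it gave p = 0.367, and over those ending in N alone p = 0.014. The differences of either Lhx9 region from Nkx2-1 had p = 0.338 and 0.138. No fit of this difference took account of the mean of the other kept regions. That mean averaged 24.5% over the B1 lines and 15.8% over the B3B lines. Region 1 followed it more closely than region 2 did (r = 0.593 against 0.366). The parts of that mean and of the final N in this difference were not tested.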

How the results depend on the processing

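Of the correlations, that between the Lhx9 regions kept its direction and its side of the threshold under all 11 alternatives. The prefix F test of Nkx2-1, which has no direction, did not pass the threshold under any of 12. Its differences between prefixes did turn with the covariate. B1 minus B3A went from 0.58 to -0.398 and B1 minus B3B from 0.419 to -0.292 on the log2 odds scale, and none of these passed. On fractions centred by the overall level, F passed the threshold with 4.22 at Lhx9 region 1 (adjusted p = 0.0113, range over alternatives 0.0113 to 0.294) and 5.41 at Lhx9 region 2 (adjusted p = 0.00315, range 0.00315 to 0.884). Centring subtracts the prefix difference of that level from regions chosen for following it little, so nothing is read from the centred calls. With averages of the CpG table F at Lhx9 region 2 was 4.05 (adjusted p = 0.0136). With the overall level as covariate 28 regions were called in all. Of 11 alternatives for the pairs at Lhx9 region 1, the B1 minus B3A call held under 6 and was lost under 5. There were 0 pairs with the covariate, on untransformed fractions, without columns ending in N and without lines with 2 titles, and centring called B1 minus B3B instead. The B1 minus B3A difference was -0.37 with the covariate and -0.0404 on centred fractions. At Lhx9 region 2 centring and CpG averages called 1 pair each. Leaving out B1_B37N, chosen after seeing the data like 7 of the pair alternatives, changed no call of the 3 regions described. It gave 11 called CpGs in them against 10, and 652 called regions among all kept ones against 642. The number of called CpGs in the 3 regions was 0 with the covariate, 4 on untransformed fractions and 1 without the columns ending in N. Between Lhx9 region 1 and Nkx2-1, r was -0.23 on residuals, -0.14 within B1, 0.82 within B3A and -0.17 within B3B. Between Lhx9 region 2 and Nkx2-1, r was 0.0899 on log2 odds, -0.22 on residuals, 0.0546 without the 2 farthest lines, 0.0572 within B2 and 0.83 within B3A. The cause of these changes was not tested, except that within a prefix fewer lines enter. No paired analysis was possible because the columns carry no replicate numbers shared between prefixes.

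Depth is unknown, so a high value from few reads cannot be told from one with many. Lhx9 region 2 rests on 4 listed CpGs within 61 bases. The prefix and the final N overlap, with 16 of 20 B3A lines and 0 of 18 B2 lines ending in N, so their parts cannot be fully told apart. Genotype at the loci was not analysed here.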

Other observations

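After regression on the overall level, the relation of Lhx9 to Nkx2-1 within prefixes had both signs, in correlations computed after the pooled values had been seen and not adjusted. In the 19 B3B lines the residuals of Lhx9 region 1 and Nkx2-1 had r = -0.632 (permutation p = 0.00421) and rho = -0.782 (p = 8e-05), and r was -0.596 without the 2 farthest lines. In the 20 B3A lines r was 0.706 (permutation p = 0.00427) and 0.221 without the 2 farthest lines. The values in B1 and B2 were -0.361 and -0.251 (permutation p = 0.0535 and 0.315). On the fractions themselves r was -0.169 in B3B, 0.817 in B3A, -0.136 in B1 and 0.262 in B2. The permutation p was 0.488, 0.00333, 0.492 and 0.293 in the same order. The regression was fitted over the lines of every prefix together, so residuals within a prefix can still hold part of the level. Both regions were chosen for following that level little. Nothing is read from the residual values, and the difference between prefixes in r was not tested.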
